A study of Homo sapiens with 12 samples.

Results

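NF-kB is a family of dimeric transcription factors. Its subunits and the feedback genes that restrain it are 10 genes here: the subunit genes NFKB1, NFKB2, REL, RELA and RELB, the inhibitor genes NFKBIA and NFKBIE, and TNFAIP3, BIRC3 and BCL3. They were taken by gene symbol from a table of 58884 genes, and each symbol was found once. All 10 passed the filter on low values. RNA came from KYSE70, an established human esophageal squamous cell carcinoma line, grown in RPMI1640 medium with serum and antibiotics. The 12 libraries fall into 4 of untreated cells (control), 4 of cells given 10 µM pyrimethamine, an antifolate, and 4 of cells given 20 nM mitoxantrone, a topoisomerase II poison. Both drugs were given for 72 h, and the series title calls them NRF2 inhibitors. The labels give no vehicle for the control and do not say whether replicates were grown as separate cultures, so p-values measure only the spread between these samples, which may be technical. All groups are 1 line, so nothing here extends to other cells.

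In resting cells NF-kB dimers are held in the cytoplasm by IkB proteins such as the product of NFKBIA. Signals from receptors of tumor necrosis factor, interleukin 1 or microbial products activate the IKK kinase, IkB is destroyed, and dimers of RELA with the NFKB1 product enter the nucleus (the canonical route). A slower, noncanonical route cuts the NFKB2 product and frees dimers that contain RELB. NFKBIA, TNFAIP3, BIRC3, NFKB2 and RELB are themselves well-known target genes, so their transcripts are often read as feedback of the pathway. Transcript levels do not show where the proteins are or how active they are.

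Target genes are bound through the kB element, and short windows of promoter sequence are shown here because the feedback loop rests on such elements. RefSeq windows of 250 bases before an annotated start (GRCh38.p14) were matched for 8 of the 10 genes, 12 windows in all. The kB consensus (GGGRNWYYCC, where R is A or G, N any base, W is A or T, and Y is C or T) was searched on both strands. Overlapping matches on either strand were counted as they fell. The consensus was found in 7 of these windows and in 6 of the genes. It was found in 5.21% of all 35116 windows of that length and 6.16% of the 16158 windows of genes tested here. Several of the 10 genes are well-known NF-kB targets, so these shares are a description and not a test. The strings are each read 5′ to 3′ along the gene's strand, with the consensus match in capitals and 10 bases on either side.
NFKB1, chr4:102501300-102501329, plus strand: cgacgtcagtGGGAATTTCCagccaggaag
NFKB2, chr10:102394461-102394490, plus strand: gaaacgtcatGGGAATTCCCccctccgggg
REL, chr2:60881517-60881546, plus strand: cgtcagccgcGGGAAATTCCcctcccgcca
NFKBIA, chr14:35404811-35404840, minus strand: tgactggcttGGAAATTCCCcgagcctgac
TNFAIP3, chr6:137867194-137867223, plus strand: aaagtcccgtGGAAATCCCCgggcctacaa
BIRC3, chr11:102317275-102317304, plus strand: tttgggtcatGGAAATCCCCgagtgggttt
The match lies 49 to 40 bases before the start in NFKB1 and 81 to 72 bases before it in NFKBIA. In BIRC3 it lies 199 to 190 bases before the start, and a further match was found 135 to 126 bases before it. TNFAIP3 has a further match 67 to 58 bases before its start, and REL an overlapping match 46 to 37 bases before its start. The matches shown for NFKBIA, TNFAIP3 and BIRC3 are on the strand opposite the gene. NFKB2 has 3 RefSeq starts, of which the second and the third have matches, and the string shown belongs to the second. Further matches in that second window lie 106 to 97 and 78 to 69 bases before the start. All starts here are those of RefSeq. For NFKB1, REL, TNFAIP3 and BIRC3 they lie downstream of the start of the gene positions given below, which are from GENCODE 29. The matches shown for NFKB2, REL and TNFAIP3 lie inside those gene positions. The windows of RELA and BCL3 held no match to these letters. No window was available for RELB and NFKBIE, so these genes were not searched. A match describes letters in a window and does not show binding.

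Values are normalized counts, that is, read counts divided by a size factor for each library, and depth ran from 47.5 M to 94.5 M gene-assigned reads per library. A gene was called changed at an adjusted p under 0.05 in limma over all 16950 genes tested, and changes are log2 changes of the normalized count plus 1. All 11 squamous epithelial markers checked passed the filter, led by KRT5, with summed levels of 442333 to 470863 in the control, 544801 to 572394 under pyrimethamine and 414461 to 445635 under mitoxantrone. Only 3 of 14 leukocyte markers passed, led by NCAM1, with sums of 83.0 to 153, 181 to 240 and 41.0 to 63.0 in the same order. MS4A1 and NKG7 were at 0 in every library. Of 8 fibroblast markers 4 passed, with sums of 23039 to 23976, 19471 to 20913 and 8886 to 10757, led by COL1A1, and COL1A2 had 0 reads in the control and mitoxantrone libraries. Of 6 endothelial markers 2 passed, with sums of 967 to 1091, 1102 to 1193 and 186 to 252, led by VWF, and CLDN5 was at 0 in every library. The leukocyte, fibroblast and endothelial sums were thus lower in every mitoxantrone library than in any control, while in every pyrimethamine library the squamous, leukocyte and endothelial sums were higher and the fibroblast sum lower. The sums follow their most abundant genes. VWF itself was not called with pyrimethamine (log2 change 0.13, adjusted p = 0.223), while the endothelial marker TEK was called higher. Of the leukocyte markers, PTPRC and NCAM1 were called higher with pyrimethamine and ITGAM was not called. With pyrimethamine 4 squamous markers were called higher, 3 lower (TP63, SOX2 and EPCAM) and 4 not. The fibroblast marker THY1 rose (log2 change 0.28) where COL1A1 and COL3A1 fell. With mitoxantrone 3 squamous markers were called higher (again TP63, SOX2 and EPCAM), 5 lower and 3 not. The fibroblast marker COL3A1 was not called with mitoxantrone (log2 change -0.082). The part of these markers in the results given next was not tested.

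In untreated cells the 10 genes spanned a wide range. Per kilobase of exon, which allows genes to be compared, RELA stood at 1105 ± 22.5 and NFKB2 at 1085 ± 49.7 normalized counts (SD, n = 4 each), and the libraries of these 2 overlapped. NFKBIA followed at 700.2 ± 61.0 per kb, then NFKB1 at 379 ± 19.5, BCL3 at 313 ± 21.0 and RELB at 226 ± 14.9. NFKBIE stood at 157 ± 6.41 per kb, REL at 88.3 ± 3.57, TNFAIP3 at 54.6 ± 7.36 and BIRC3 last at 16.3 ± 1.31. Apart from RELA and NFKB2, no neighbors in this order overlapped. REL is the least certain of these, since 43.3% of its exon sequence also belongs to AC010733.2, a gene that is listed at 0 in all 12 libraries. How reads in that stretch were counted is not stated in the sources used here. Over the exon sequence REL shares with no other gene, a length chosen after seeing the data, its level would be 156 ± 6.30 per kb, overlapping NFKBIE.

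The order changed under the drugs. Under pyrimethamine RELA (1237 ± 41.2 per kb) and NFKB2 (932 ± 37.7 per kb) no longer overlapped, and BCL3 (278 ± 11.6 per kb) stood above NFKB1 (229 to 255 per kb over its libraries). No neighbors in the pyrimethamine order overlapped by full exon length, but REL per unshared kb (129 to 155) overlapped NFKBIE (137 to 159). Under mitoxantrone NFKBIA led at 1021 ± 53.9 per kb, overlapping RELA at 987 ± 49.0, and NFKB2 was next at 554 ± 10.5 (SD, n = 4 each). NFKB1 and BCL3 overlapped there, and so did NFKBIE and RELB. Per unshared kb REL (118 ± 8.38) would stand above RELB (94.3 ± 10.5) under mitoxantrone. TNFAIP3 and BIRC3 were the lowest of the 10 in every group.

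**Figure D1:**
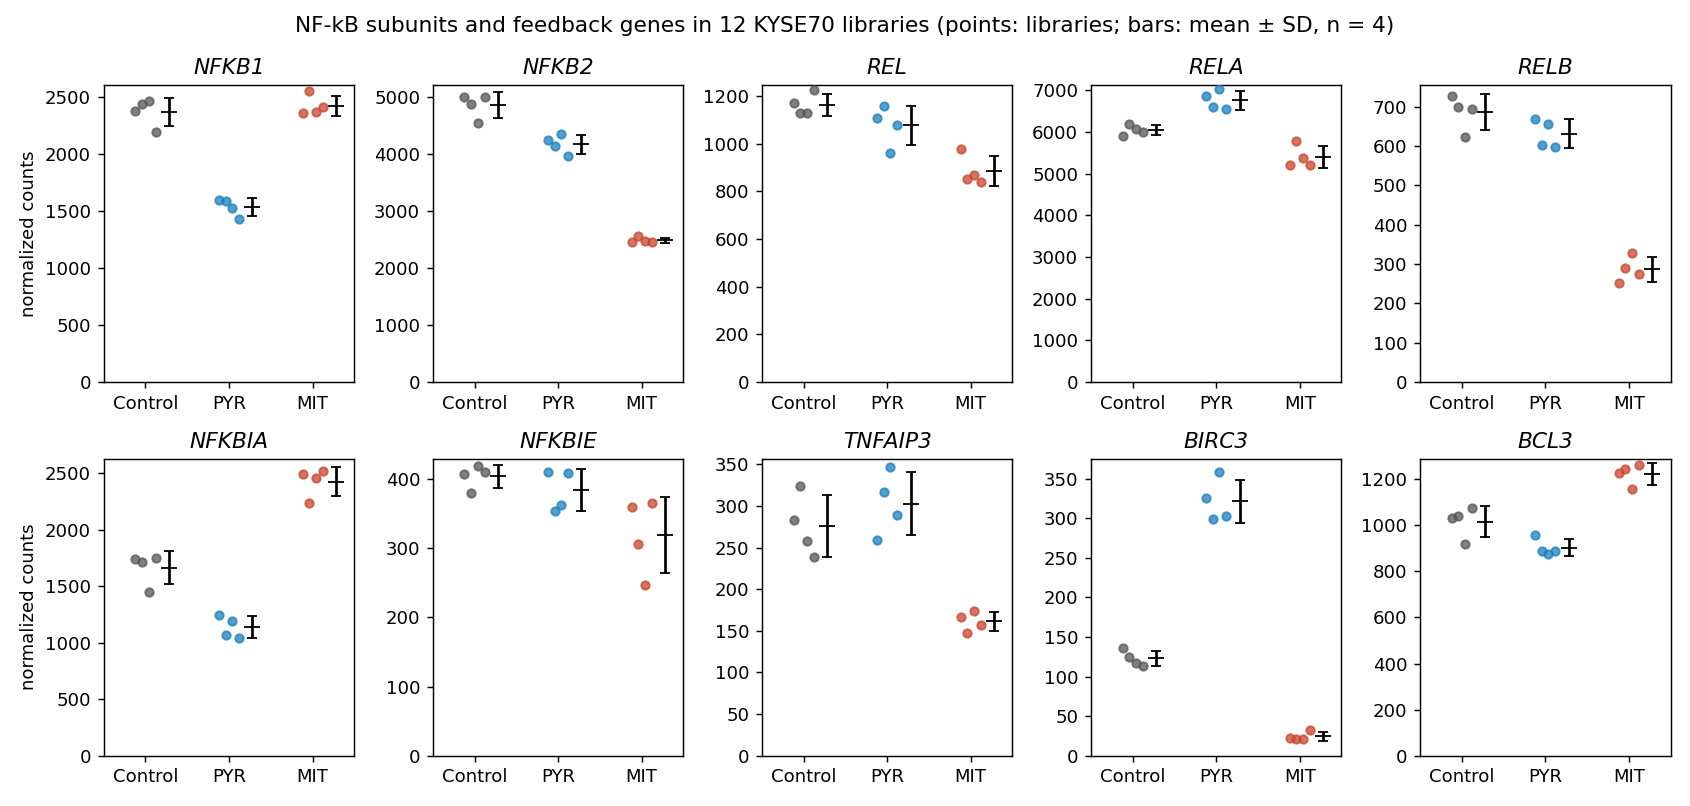
Normalized counts (y axis, from 0) of the 10 genes in each of 12 KYSE70 libraries, by group on the x axis (Control, PYR for pyrimethamine, MIT for mitoxantrone). Points are libraries and bars the mean ± SD (n = 4). BIRC3 lies between 299 and 358 under pyrimethamine and between 21.0 and 32.3 under mitoxantrone, on either side of the controls at 113 to 136.

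With pyrimethamine, 2 of the 10 genes rose (RELA and BIRC3), 4 fell (NFKB1, NFKB2, NFKBIA and BCL3), and 4 did not pass the test (REL, RELB, NFKBIE and TNFAIP3). That is 6 of 10 called, where 53.3% of all genes tested were called, 26.4% higher and 26.9% lower, so the share of called genes is near that of any gene. After rescaling all libraries to 1 total, 7 of the 10 were called, and the split over all genes went from 4477 higher and 4565 lower to 3647 and 5506. The median log2 change of the 10 was -0.12, against 0.0018 over all genes. The libraries of the compared groups did not overlap for 5 of the 10 (NFKB1, NFKB2, RELA, NFKBIA and BIRC3), against 51.1% of all genes. In bulk RNA, fewer cells that express a gene and less RNA of it per cell cannot be told apart, here and in all that follows.

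With mitoxantrone, 2 of the 10 rose (NFKBIA and BCL3), 7 fell (NFKB2, REL, RELA, RELB, NFKBIE, TNFAIP3 and BIRC3), and NFKB1 did not pass the test. Among all genes tested 69.3% were called, 33.5% higher and 35.8% lower. The median log2 change of the 10 was -0.38, against -0.0080 over all genes. Libraries did not overlap for 9 of the 10, all but NFKB1, against 60.9% of all genes. After rescaling all libraries to 1 total, all genes together shifted by a median of -0.11, and 4420 genes were called higher and 7210 lower in place of 5681 and 6064. Quantile normalization moved the split the other way, to 6122 higher and 5553 lower, as did keeping only genes with a mean of 100 or more (5053 and 4230).

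Between the drugs, all 10 genes were called, where 76.4% of all genes were. NFKB1, NFKBIA and BCL3 were higher under mitoxantrone than under pyrimethamine, and the other 7 were lower. Among all genes 36.9% were higher and 39.5% lower in this comparison. Libraries of the 2 drugs overlapped only for REL and NFKBIE, and 68.8% of all genes showed no overlap. The comparisons of each drug with the control share the same 4 control libraries, so their values are given side by side and this direct comparison is the test of whether the drugs differ.

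**Figure D2:**
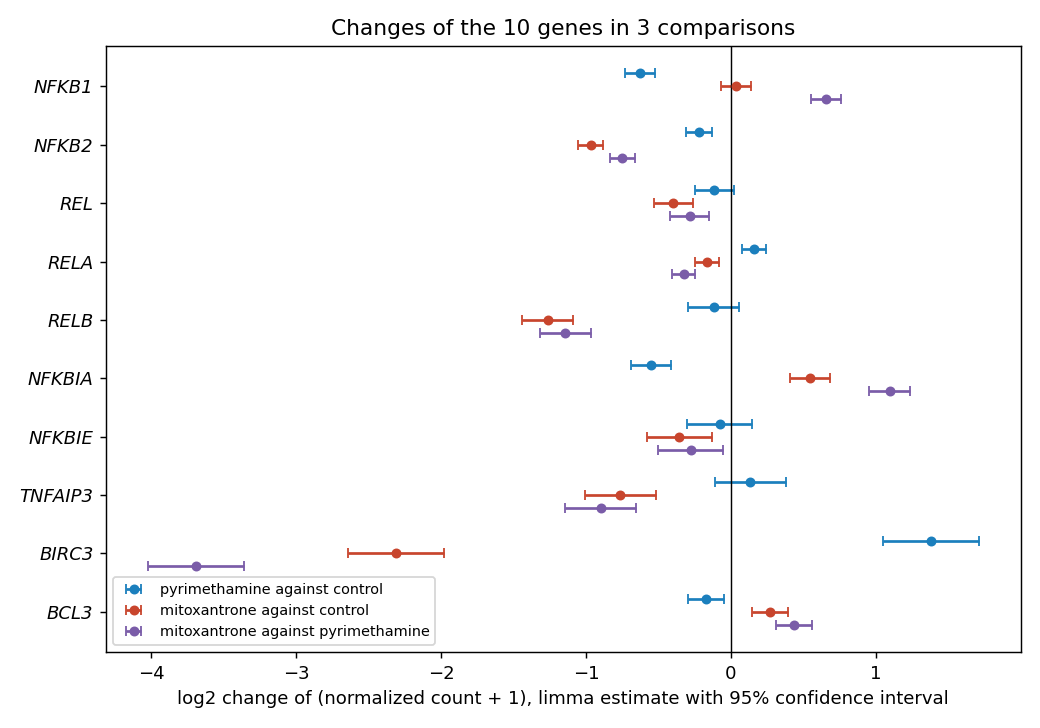
Log2 changes (x axis) of the 10 genes (y axis), as limma estimates with 95% confidence intervals, for pyrimethamine against control, mitoxantrone against control and mitoxantrone against pyrimethamine. NFKBIA lies at -0.55 with pyrimethamine and 0.55 with mitoxantrone, and BIRC3 at 1.38 and -2.31.

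Among the subunits of the canonical route, NFKB1 (chr4:102501329-102617302, GRCh38), whose product is processed to a DNA-binding subunit with no activation domain of its own, changed only with pyrimethamine among the comparisons with the control. The 4 control libraries held 2383, 2439, 2466 and 2195 normalized counts of NFKB1, those of pyrimethamine 1595, 1590, 1527 and 1433, and those of mitoxantrone 2363, 2552, 2371 and 2412. All pyrimethamine libraries lay below every other library, and the mitoxantrone libraries overlapped the controls. NFKB1 fell with pyrimethamine by a log2 change of -0.63 (SE 0.049, adjusted p = 1.08e-09), 1.54-fold lower. With mitoxantrone its log2 change was 0.033 (95% interval -0.070 to 0.14, adjusted p = 0.562), a value that turned negative after rescaling all libraries to 1 total (-0.068, adjusted p = 0.234) and without control replicate 4 (-0.0031, adjusted p = 0.959). Between the drugs NFKB1 was 1.58-fold higher under mitoxantrone (log2 change 0.66, adjusted p = 7.36e-11).

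RELA (chr11:65653596-65663094), the main activating subunit, moved little. Its normalized counts were 5901, 6190, 6072 and 5990 in the control, 6856, 6594, 7030 and 6555 under pyrimethamine, and 5208, 5779, 5377 and 5216 under mitoxantrone. The 3 groups did not overlap, with pyrimethamine highest and mitoxantrone lowest. RELA rose with pyrimethamine (log2 change 0.16, SE 0.039, adjusted p = 0.00150) and fell with mitoxantrone (log2 change -0.16, adjusted p = 9.38e-04). REL (chr2:60881521-60931610), a subunit best known from lymphocytes, ranged from 1127 to 1227 normalized counts in the control, 962 to 1157 under pyrimethamine and 839 to 976 under mitoxantrone. REL fell with mitoxantrone, with a log2 change of -0.40 (SE 0.065, adjusted p = 1.40e-05), and for pyrimethamine the log2 change was -0.11 (95% interval -0.25 to 0.022, adjusted p = 0.150). With every library rescaled to 1 total, the pyrimethamine change of REL passed the test (-0.17, adjusted p = 0.0372).

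The subunits of the noncanonical route fell together with mitoxantrone. NFKB2 (chr10:102394110-102402529), whose product serves as an inhibitor until it is cut, held 5013, 4883, 4542 and 5015 normalized counts in the control, 4254, 4139, 4355 and 3961 under pyrimethamine, and 2458, 2556, 2474 and 2455 under mitoxantrone. The mitoxantrone libraries lay within a narrow band far below all others, and the pyrimethamine libraries lay just below the controls. NFKB2 was 1.95-fold lower with mitoxantrone (log2 change -0.97, SE 0.042, adjusted p = 2.16e-14) and 1.16-fold lower with pyrimethamine (log2 change -0.22, adjusted p = 1.47e-04).

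RELB (chr19:45001430-45038198), the partner of the cut NFKB2 product, held 728, 700.3, 622 and 694 normalized counts in the control, 668, 603, 657 and 597 under pyrimethamine, and 252, 290.0, 328 and 274 under mitoxantrone. Every mitoxantrone library was below the lowest of the other 8, and pyrimethamine overlapped the control. RELB was 2.40-fold lower with mitoxantrone (log2 change -1.26, SE 0.085, adjusted p = 2.31e-11), and its log2 change with pyrimethamine was -0.12 (95% interval -0.30 to 0.057, adjusted p = 0.249). Between the drugs the difference of RELB was -1.14 on the log2 scale (adjusted p = 5.73e-11).

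These changes altered the make-up of the subunit transcripts. Summed per kb over the 5 subunits, the control stood at 2883 ± 52.1, pyrimethamine at 2704 ± 91.5 and mitoxantrone at 2091 ± 73.9 (SD, n = 4 each). RELA made up 38.3% ± 1.03 of that sum in control cells, 45.8% ± 0.535 with pyrimethamine and 47.2% ± 0.660 with mitoxantrone. NFKB2 made up 37.6% ± 1.23, 34.5% ± 0.298 and 26.5% ± 0.439 in the same order, and NFKB1 13.2% ± 0.775, 9.08% ± 0.355 and 18.5% ± 0.303. So the share of RELA was larger under either drug, while that of NFKB1 was smallest under pyrimethamine and largest under mitoxantrone. RELB went from 7.84% ± 0.397 in the control to 7.69% ± 0.227 and 4.51% ± 0.467, and REL had group means of 3.03% to 3.22%, or 5.22% to 5.53% over the exon sequence it shares with no other gene. The ratio of NFKB2 to NFKB1 per kb was 2.57 to 3.19 in the control libraries, 3.63 to 3.98 under pyrimethamine and 1.40 to 1.46 under mitoxantrone, with no overlap. These shares and ratios are descriptions without a test.

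**Figure D3:**
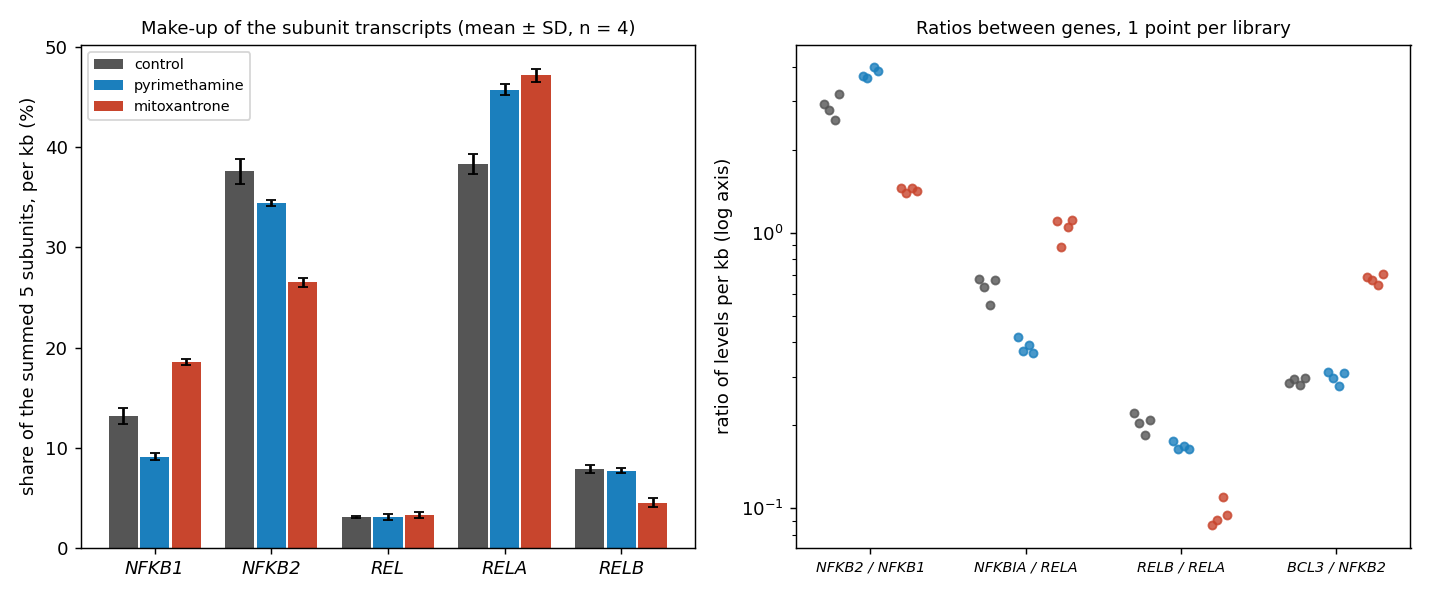
Left, the share of each subunit gene in the summed level per kb of the 5 subunits (y axis in percent, bars the mean ± SD, n = 4). Right, ratios of levels per kb between pairs of genes in each library on a log axis, with gray for the control, blue for pyrimethamine and red for mitoxantrone. The ratio of NFKBIA to RELA runs from 0.365 to 0.418 under pyrimethamine, from 0.548 to 0.680 in the control and from 0.891 to 1.11 under mitoxantrone.

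Of the inhibitors, NFKBIA (chr14:35401511-35404749), which encodes IkB alpha, the quickest feedback inhibitor of the canonical route, moved with both drugs. Its normalized counts were 1744, 1710, 1446 and 1747 in the control, 1243, 1068, 1192 and 1038 under pyrimethamine, and 2487, 2235, 2453 and 2516 under mitoxantrone. The 3 groups did not overlap, and control replicate 3 lay apart on the low side of its group. NFKBIA fell 1.46-fold with pyrimethamine (log2 change -0.55, SE 0.067, adjusted p = 5.57e-07) and rose 1.46-fold with mitoxantrone (log2 change 0.55, adjusted p = 2.75e-07). Between the drugs it was 2.14-fold higher under mitoxantrone (log2 change 1.10, adjusted p = 2.17e-12). The ratio of NFKBIA to RELA per kb averaged 0.634 ± 0.060 in control cells, 0.387 ± 0.023 with pyrimethamine and 1.04 ± 0.10 with mitoxantrone (SD, n = 4 each).

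NFKBIE (chr6:44258166-44265788), which encodes IkB epsilon, a slower inhibitor of the same kind, ranged from 381 to 418 normalized counts in the control, 354 to 410 under pyrimethamine and 247 to 366 under mitoxantrone. It fell with mitoxantrone (log2 change -0.35, SE 0.11, adjusted p = 0.00602), and its log2 change with pyrimethamine was -0.076 (95% interval -0.30 to 0.15, adjusted p = 0.578). The call with mitoxantrone was lost under quantile normalization (-0.21, adjusted p = 0.0694). The call between the drugs (-0.28, adjusted p = 0.0236) was lost under quantile normalization (-0.19, adjusted p = 0.0993) and without mitoxantrone replicate 3 (-0.16, adjusted p = 0.132), pyrimethamine replicate 1 (-0.25, adjusted p = 0.0671) or pyrimethamine replicate 4 (-0.25, adjusted p = 0.0649). Thus NFKBIA and NFKBIE, inhibitors of the same family, moved in opposite directions with mitoxantrone.

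BCL3 (chr19:44747705-44760044) encodes an unusual nuclear IkB protein that binds dimers of the NFKB1 or NFKB2 products. Its normalized counts were 1033, 1040, 918 and 1074 in the control, 959, 887, 877 and 887 under pyrimethamine, and 1227, 1245, 1157 and 1262 under mitoxantrone. The mitoxantrone libraries were the highest, and pyrimethamine replicate 1 lay above the lowest control, so these groups overlapped. BCL3 rose with mitoxantrone (log2 change 0.27, SE 0.059, adjusted p = 3.98e-04) and fell with pyrimethamine (-0.17, adjusted p = 0.0199). The pyrimethamine call was lost without control replicate 2 (adjusted p = 0.0558), control replicate 4 (0.0662) or pyrimethamine replicate 3 (0.0541), and under quantile normalization (0.0503). The ratio of BCL3 to NFKB2 per kb was 0.280 to 0.296 in the control libraries, 0.279 to 0.312 under pyrimethamine and 0.647 to 0.711 under mitoxantrone.

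BIRC3 showed the widest change of the 10 genes in each comparison. BIRC3 (chr11:102317450-102339403) encodes a ubiquitin ligase that works at tumor necrosis factor receptors and, with TRAF proteins, holds the noncanonical kinase in check. Its normalized counts were 136, 125, 117 and 113 in the control, 326, 299, 358 and 302 under pyrimethamine, and 22.7, 21.0, 21.0 and 32.3 under mitoxantrone. The groups lay far apart, with pyrimethamine above and mitoxantrone below all controls. BIRC3 rose with pyrimethamine (log2 change 1.38, SE 0.16, adjusted p = 2.73e-07) and was 4.97-fold lower with mitoxantrone (log2 change -2.31, adjusted p = 3.78e-11). Between the drugs it was 12.9-fold lower under mitoxantrone (adjusted p = 5.85e-15). The lowest mitoxantrone library held 17 reads of BIRC3, so counting error is larger there than for the other genes.

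TNFAIP3 (chr6:137867188-137883312) encodes a ubiquitin-editing enzyme that ends signaling from the same receptors. It held 283, 324, 257 and 238 normalized counts in the control, 259, 316, 347 and 289 under pyrimethamine, and 166, 148, 174 and 157 under mitoxantrone. Every mitoxantrone library was below all others, and pyrimethamine overlapped the control. TNFAIP3 was 1.70-fold lower with mitoxantrone (log2 change -0.76, SE 0.12, adjusted p = 6.40e-06), and its log2 change with pyrimethamine was 0.14 (95% interval -0.11 to 0.38, adjusted p = 0.350). Between the drugs the log2 difference was -0.90 (adjusted p = 4.88e-07).

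The 6 genes with a kB consensus match did not share a pattern. NFKB1 fell with pyrimethamine alone among the control comparisons, NFKB2 fell with both drugs, and REL and TNFAIP3 fell with mitoxantrone. NFKBIA fell with pyrimethamine and rose with mitoxantrone, and BIRC3 did the reverse. Whether the matches bear on these changes was not tested.

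The kinase complex upstream has 3 genes. IKBKB, the catalytic subunit of the canonical route, went from 1774 ± 88.9 normalized counts in the control to 1204 ± 31.0 with pyrimethamine and 2961 ± 111 with mitoxantrone (SD, n = 4 each). IKBKB thus fell with pyrimethamine (log2 change -0.56, adjusted p = 3.41e-09) and rose with mitoxantrone (log2 change 0.74, adjusted p = 1.23e-11). Its partner CHUK, the kinase of the noncanonical route, fell by 0.087 on the log2 scale with mitoxantrone (adjusted p = 0.0383), a call that was lost in edgeR (adjusted p = 0.0571), with no filter on low values (0.0751), with only the 8 libraries compared (0.0559), and without control replicate 1, 2 or 3 or mitoxantrone replicate 1, 2 or 3 (adjusted p of 0.0535 to 0.0967). IKBKG, the scaffold, was not called with either drug.

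Other IkB genes and feedback regulators went both ways. NFKBIZ, a nuclear IkB gene, rose with pyrimethamine from 78.2 ± 6.52 to 140 ± 17.1 normalized counts (log2 change 0.82, adjusted p = 5.94e-05) and with mitoxantrone to 145 ± 19.4 (log2 change 0.88, adjusted p = 1.58e-05). NFKBIB fell with pyrimethamine (log2 change -0.33, adjusted p = 0.00226) and was not called with mitoxantrone. Of 14 tested feedback and ubiquitin regulators, 6 rose, 3 fell and 5 were not called with pyrimethamine (median log2 change 0.049), and 4 rose, 5 fell and 5 were not called with mitoxantrone (median -0.063), where 53.3% and 69.3% of all genes were called. CYLD, a deubiquitinase that restrains the pathway, rose with pyrimethamine (log2 change 0.51) and fell with mitoxantrone (-0.25). COMMD1, which promotes the breakdown of RELA, rose with both drugs (0.40 and 0.56). RBCK1, of the linear ubiquitin ligase, and USP7, a deubiquitinase, fell with pyrimethamine (-0.23 and -0.15), and USP7 rose with mitoxantrone (0.50). ZC3H12A, an RNase that cuts inflammatory mRNAs, rose with mitoxantrone from 85.2 ± 17.3 to 182 ± 25.5 normalized counts (log2 change 1.10), and ITCH, a ubiquitin ligase, fell (-0.24).

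Among 23 adaptors and kinases, 5 rose, 7 fell and 11 were not called with pyrimethamine, with a median log2 change of -5.73e-05, and 11 rose, 9 fell and 3 were not called with mitoxantrone, with a median of 0.063. With pyrimethamine this is near the 53.3% called over all genes, and with mitoxantrone 69.3% of all genes were called. TAB3, an adaptor of the kinase upstream of IKK, and BCL10, an adaptor of antigen and G protein receptors, rose with pyrimethamine (0.53 and 0.33), while TAB1 fell (-0.44). With mitoxantrone TAB3 and TAB1 rose (0.29 and 0.43) and BCL10 fell (-0.71). TRAF5 fell by a log2 change of -0.35 with pyrimethamine (adjusted p = 0.0378), a call that was lost without control replicate 1, 2 or 4 or pyrimethamine replicate 1, 2 or 4 (adjusted p of 0.0588 to 0.122), with no filter on low values (0.0550) and with no variance trend (0.0723). With mitoxantrone, MAP3K14, the kinase that drives NFKB2 processing, rose from 492 ± 43.1 to 770 ± 95.9 normalized counts (log2 change 0.64, adjusted p = 1.66e-05), beside the falls of NFKB2 and RELB. MALT1, a protease and scaffold, rose with mitoxantrone as well (0.54). IKBKE, an IKK-related kinase, fell with mitoxantrone from 1462 ± 44.4 to 713 ± 45.9 (log2 change -1.04), and MYD88, the adaptor of Toll-like and interleukin 1 receptors, fell from a low level (-1.11).

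Receptors were called in both directions with pyrimethamine and mostly lower with mitoxantrone. Of 15 tested, 4 rose, 4 fell and 7 were not called with pyrimethamine (median log2 change 0.058), and 3 rose (TNFRSF1A, TNFRSF12A and TLR4), 11 fell and 1 (LTBR) was not called with mitoxantrone (median -0.25). Over all genes 53.3% were called with pyrimethamine, the same share as these receptors, and 69.3% with mitoxantrone, 35.8% lower. TNFRSF21, a death receptor, and IL1RAP, the shared chain of interleukin 1 receptors, rose with pyrimethamine (0.46 and 0.43). TNFRSF11A and TNFRSF1A, the main tumor necrosis factor receptor, fell with pyrimethamine (-0.51 and -0.35), and with mitoxantrone TNFRSF11A fell and TNFRSF1A rose (-0.65 and 0.29). TNFRSF12A, the receptor of TWEAK, rose with mitoxantrone (0.65), as did TLR4 (0.33). TLR3, a sensor of double-stranded RNA, fell with mitoxantrone from 430.1 ± 43.8 to 97.2 ± 23.4 normalized counts (-2.16), and TLR1 from 55.1 ± 23.0 to 8.28 ± 4.05 (-2.60).

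Only 6 of 15 ligands passed the filter, and TNF itself was among those that did not, with 1, 5 and 0 reads summed over the 4 libraries of the control, pyrimethamine and mitoxantrone. With pyrimethamine TNFSF9 and IL18 rose (0.33 and 0.24), and IL1A, IL1B and TNFSF10 fell (-0.52, -0.57 and -0.43), while TNFSF15 was not called. With mitoxantrone none rose and 4 fell, among them TNFSF15 (-1.06) and TNFSF10 (-0.81), and IL1A and IL1B were not called. The median log2 change of the 6 was -0.29 with pyrimethamine and -0.33 with mitoxantrone, against 0.0018 and -0.0080 over all genes. Of all genes tested 53.3% were called with pyrimethamine and 69.3% with mitoxantrone, the latter 35.8% lower.

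Of 34 other known NF-kB target genes in the table, 21 passed the filter. With pyrimethamine 5 rose, 5 fell and 11 were not called (median log2 change 0.0047, against 0.0018 over all genes). With mitoxantrone 5 rose, 11 fell and 5 were not called (median -0.60, against -0.0080 over all genes). These counts and medians include genes at low levels. CFLAR, CSF1 and C3, among the 11 falls, had means of 10.5, 20.9 and 45.1 normalized counts in the control. Under mitoxantrone their means were 1.27, 8.20 and 9.28. LCN2, among the 5 rises with pyrimethamine, and CFLAR reached 10 in all 4 libraries only under pyrimethamine. Of all genes tested 53.3% were called with pyrimethamine and 69.3% with mitoxantrone, the latter 33.5% higher and 35.8% lower. SAA1, an acute-phase protein gene with a close copy that limits how surely its reads were assigned, went from 503 ± 55.0 normalized counts in the control to 1108 ± 80.1 with pyrimethamine and 9.45 ± 8.22 with mitoxantrone (SD, n = 4 each). SAA1 rose with pyrimethamine (log2 change 1.14, adjusted p = 0.00718). At the same log2 change, this gene missed the threshold under robust variance estimation (adjusted p = 0.0674) or no variance trend (0.0602) and passed in every other alternative, with only the 8 libraries compared at 2.32e-12 and edgeR at 5.35e-09. Its fall with mitoxantrone had a log2 change of -5.93 (adjusted p = 1.70e-12). TNFAIP2 rose with pyrimethamine from 147 ± 4.04 to 298 ± 18.2 normalized counts (1.01) and fell with mitoxantrone to 15.5 ± 5.35 (-3.23).

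Chemokine genes of that list went both ways. CCL2, which attracts monocytes, and CXCL8, which attracts neutrophils, fell with pyrimethamine (-1.05 and -0.59) and with mitoxantrone (-0.60 and -0.74). CXCL1, a neutrophil chemokine gene with close relatives, rose with mitoxantrone from 1136 ± 125 to 1591 ± 309 normalized counts (0.47, adjusted p = 2.93e-04) and fell with pyrimethamine (-0.29, adjusted p = 0.0206). CCND1, the cyclin D1 gene, rose with mitoxantrone (0.51).

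**Figure D4:**
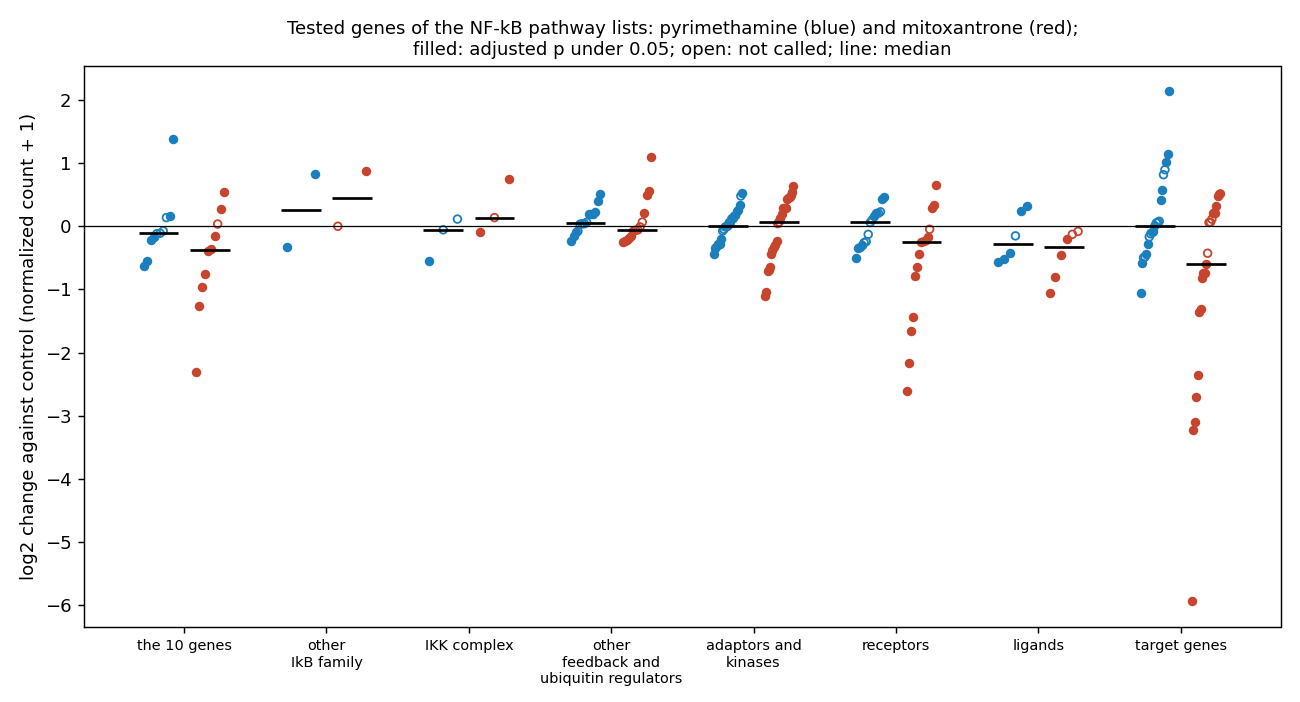
Log2 change against the control (y axis) of each tested gene of the 8 lists on the x axis, in blue for pyrimethamine and red for mitoxantrone. Filled points passed an adjusted p of 0.05, open points did not, and black lines are medians. The median of the target genes lies at 0.0047 with pyrimethamine and -0.60 with mitoxantrone.

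The genes whose levels over the 12 libraries were most like those of NFKB2, by Pearson correlation of log2 values among 13104 genes, were GLIPR2 (r = 0.996), SLC22A17 (0.995) and LANCL2 (0.995). For NFKBIA they were SLC35F3 (0.991), SNHG7 (0.991) and CTDNEP1 (0.989). These are descriptions over 3 groups of 4 libraries, and any gene with a like order of the groups scores high.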

How the data were processed

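The deposited table holds, per gene and library, a normalized signal (read counts that the authors divided by a factor per library). Per the submitters' processing notes, the tools were featureCounts 1.5.1, STAR 2.6.90c, cutadapt 1.12 and FastQC 0.11.5, with builds hg38 and mm10. The tool behind the factors, strand setting and annotation are not given in the sources used here. All values were whole reads after multiplication (100% within 0.01 read), and recomputed median-of-ratios factors matched the authors' own. Gene positions and exon lengths came from GENCODE 29 (GRCh38), promoters from RefSeq.

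Genes that reached 10 in 4 or more libraries were fitted with limma 3.58.1 (R 4.3.3) on log2(value + 1), group as the only term, eBayes with trend, two-sided, Benjamini-Hochberg over all genes. The method was tested on simulated data with the same dispersion for every gene and far fewer changed genes than were called here. That test does not give the error rate in these data. edgeR 4.0.16 and DESeq2 1.42.0 on recovered reads called 9286 and 9318 genes for pyrimethamine, 11765 and 11834 for mitoxantrone, and 12943 and 12960 between drugs. Intervals cover 95%. The 10 genes and all lists were chosen with earlier results of these data known. The text names the 10 genes and, per list and drug, up to 2 called rises and 2 falls with the largest change and a higher group mean of 50 or more, plus the 3 genes most like NFKB2 and NFKBIA. TNF, LTBR, IKBKG and others that fill a small count, and genes named for their low levels or as markers, were named with their values in view. NFKBID, N4BP1 and SOD2 are not analysed here.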

Additional observations from a re-analysis of the deposited data

Results flagged for a closer look

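In groups of 4, a library was singled out when its gap to the nearest other library exceeded Dixon's 95% critical share of the group's range, which chance does in about 1 of 20 groups. Of 144 groups checked, 13 were singled out, 3 of them among the 30 of the 10 genes. NFKBIA was low in control replicate 3 (1446 normalized counts against 1710 to 1747 in the others). BIRC3 was high in mitoxantrone replicate 4 (32.3 against 21.0 to 22.7), and BCL3 in pyrimethamine replicate 1 (959 against 877 to 887).

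Among the other named genes, the libraries singled out under pyrimethamine were those of NFKBIB in replicate 4 (774), CYLD in replicate 2 (1484) and CCND1 in replicate 1 (16315). Under mitoxantrone these were COMMD1 in replicate 1 (1826), CXCL8 in replicate 1 (142), BCL10 in replicate 2 (1393), TNFSF10 in replicate 2 (218) and ITCH in replicate 3 (6180.0). In the control these were MAP3K14 in replicate 2 (427) and MYD88 in replicate 3 (46.7). All values are normalized counts.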

How the results depend on the processing

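Over 21 alternatives and 3 comparisons, 616 of 630 values of the 10 genes kept their direction and side of the threshold. Of the rest, 9 lost their call (BCL3 with pyrimethamine, NFKBIE with mitoxantrone and between drugs), 1 gained it (REL with pyrimethamine) and 4 reversed. The reversals were all NFKB1 with mitoxantrone: -0.068 after rescaling to 1 total, -0.013 with upper-quartile rescaling, -0.013 with quantile normalization and -0.0031 without control replicate 4 (range with 1 library left out, -0.0031 to 0.053). The cause was not tested. Leaving out 1 library, 5 to 6 of the 10 genes were called with pyrimethamine, 9 with mitoxantrone and 9 to 10 between drugs. Of all 16950 genes tested, 8299 to 8562, 11193 to 11717 and 12565 to 12900 were called in the same order. Of 922 values of the other named genes, 901 kept their side and 21 lost the call (TRAF5 and SAA1 with pyrimethamine, CHUK with mitoxantrone), and 0 reversed.

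Replicate numbers showed no clear sign of pairing the samples, though a weak pairing could go unseen in this check. Same-numbered samples correlated in their deviations by -0.13 to 0.12 over 12 pairs, and a sample correlated best with its own number in 8 of 24 checks. With a replicate block 6, 9 and 10 of the 10 genes were called, and 9057, 11749 and 12931 of all genes. Only TRAF5 (adjusted p = 0.0509) and CHUK (adjusted p = 0.0526) lost their call under the block among the named genes. Under mitoxantrone, low reads limit BIRC3 (97 over 4 libraries) and, among the other named genes, TNFAIP2 (61), SAA1 (35) and TLR1 (34). They also limit the counts and median of the target genes, through C3 (35), CSF1 (31), CFLAR (5) and others.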
